A study of Mus musculus with 6 samples.

Results

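The 10 genes described here encode GATA factors (*Gata2*, *Gata3*, *Gata4*, *Gata5* and *Gata6*) and transcription factors of the developing heart (*Tbx20*, *Hand2*, *Mef2c*, *Nkx2-5* and *Sox9*). They were chosen by symbol, and all 10 were found among the 55416 genes of the count table. RNA-Seq was performed on mGFP+ cells sorted from E15.5 heart ventricles of ControlΔEC embryos, which were Pdgfb-CreERT2/+, wild type for *Wt1* and R26-mTmG/+, and of Wt1KOΔEC embryos, which were Pdgfb-CreERT2/+, Wt1-LoxP/LoxP and R26-mTmG/+, with 3 libraries of each genotype. Both genotypes carried the tamoxifen-inducible Cre under *Pdgfb* (Pdgfb-iCreERT2 in the study's methods), which is active in endothelial cells (ECs), and the reporter that turns recombined cells green, and the dams of both were given oral tamoxifen (75 mg/kg) on embryonic days between E11.5 and E13.5. The labels call the 3 libraries of a genotype biological replicates without saying whether each came from one embryo or from a pool. *Wt1* encodes the zinc finger transcription factor deleted here.

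GATA factors bind short DNA motifs built on the letters GATA through zinc fingers and work with partners of the FOG, LMO2 and LDB families. GATA2 is the main GATA factor of blood vessel and haematopoietic cells, whereas GATA4, GATA5 and GATA6 act in heart muscle, endocardium and epicardium. TBX20 (T-box), HAND2 (bHLH), MEF2C (MADS box) and NKX2-5 (homeobox) form, with GATA4, the core network of cardiac transcription factors, and SOX9 drives the mesenchyme of the cardiac valves and of cartilage.

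The libraries held between 26037324 and 44779020 counts, and levels are given as CPM, each count as a part of its library's total after adjustment by the trimmed mean of M-values (TMM). The endothelial genes were the most abundant of the marker lists apart from those of erythroid cells, with 5870 to 7244 summed CPM over 10 genes in ControlΔEC and 5729 to 6628 in Wt1KOΔEC, and the most abundant of them, *Pecam1*, was at 1635 and 1575 CPM on average. The 18S ribosomal RNA gene *Rn18s* took 13.2% to 15.3% of counts in ControlΔEC and 21.1% to 26.5% in Wt1KOΔEC, and the mitochondrial genes 5.21% to 6.61% and 1.68% to 4.57%. The library codes began with AT in all ControlΔEC libraries and with AU in all Wt1KOΔEC libraries. The labels do not say what these letters stand for. If they mark separate handling, its part in any difference below cannot be told apart from that of genotype. *Wt1* itself was at 145, 110 and 149 CPM in the ControlΔEC libraries and at 14.0, 18.4 and 21.3 CPM in the Wt1KOΔEC libraries, and fell by 2.91 on the log2 scale (SE 0.22, edgeR's quasi-likelihood test, Benjamini-Hochberg adjusted p = 0.00319). All 6 libraries thus followed their labels.

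The question asked of the 10 genes was whether their levels differed between ECs with and without *Wt1*. Of the members tested, *Gata4* had the largest log2 fold change, with a mean 3.03 times as high in Wt1KOΔEC, and *Sox9* and *Tbx20* were also higher in every Wt1KOΔEC library than in any ControlΔEC library. *Mef2c* was lower in every Wt1KOΔEC library, by a smaller amount. *Gata2*, *Gata3*, *Gata5*, *Gata6* and *Hand2* had overlapping values, and *Nkx2-5* was close to the limit of detection. The plot of levels in each library shows all 10.

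**Figure D1:**
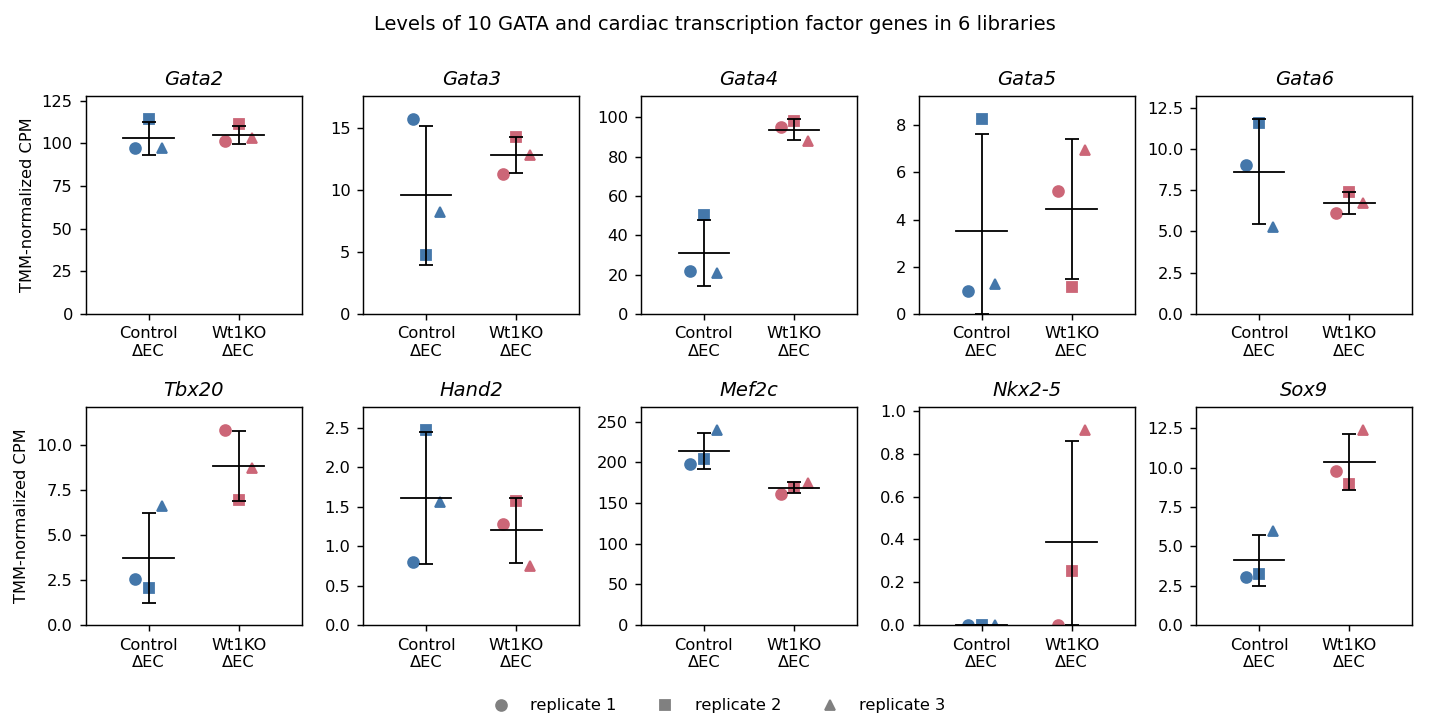
TMM-normalized CPM (linear axes from 0) of the 10 genes in the 3 ControlΔEC libraries (blue) and the 3 Wt1KOΔEC libraries (red); the shape of a point gives the replicate, the long line the mean and the bars 1 SD, with lower bars stopped at 0. *Gata4* was between 20.8 and 50.4 CPM in ControlΔEC and between 87.8 and 98.3 CPM in Wt1KOΔEC, while *Gata2* was between 97.4 and 114 CPM in all 6 libraries.

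None of the 9 members tested was a differentially expressed gene (DEG; adjusted p under 0.05 and a log2 fold change of more than 0.58 in either direction) by edgeR, against 12 of 16296 genes tested, or 0.0736% (0.0491% higher and 0.0245% lower). At an unadjusted p under 0.05, 3 members were higher in Wt1KOΔEC and 1 was lower, and over all genes tested 5.96% were higher and 7.12% lower by that rule, 13.1% in all. DESeq2, run on the whole table, called 2 members higher, *Gata4* and *Sox9*, and none lower, with 1.43% of 24325 genes called higher and 1.72% lower, 3.15% in all. The groups did not overlap in 4 of the 9 members, compared with 19.3% of all genes tested (10.3% with Wt1KOΔEC above ControlΔEC and 8.97% below). The median log2 fold change of the 9 members was 0.34, compared with -0.03 over all genes tested.

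*Gata4* (chr14:63436362-63509141 of GRCm39, minus strand) encodes a zinc finger activator of heart muscle, endocardial and epicardial genes. It was at 21.7, 50.4 and 20.8 CPM in the ControlΔEC libraries and at 95.3, 98.3 and 87.8 CPM in the Wt1KOΔEC libraries. The lowest Wt1KOΔEC library was above the highest ControlΔEC library, replicate 2, which stood well above the other two ControlΔEC libraries. The log2 fold change was 1.60 (SE 0.33, 95% interval 0.86 to 2.34, edgeR adjusted p = 0.12). With DESeq2 on the same counts the adjusted p was 0.000465, and edgeR called *Gata4* when genes of low count were kept or when each gene needed 10 counts in every library. Without ControlΔEC replicate 2 the log2 fold change was 2.14 with an edgeR adjusted p of 0.00548, and with any other library left out it was between 1.38 and 1.64, with *Gata4* no DEG. In bulk libraries such as these, more cells with *Gata4* RNA and more of that RNA per cell cannot be told apart.

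*Gata2* (chr6:88170559-88184018, plus strand), the GATA factor of the EC programme, was at 97.5, 114 and 97.4 CPM in ControlΔEC and at 101, 111 and 103 CPM in Wt1KOΔEC. The 3 Wt1KOΔEC values lay within the range of the ControlΔEC values. Its log2 fold change was 0.03 (95% interval -0.30 to 0.36, edgeR adjusted p = 0.97), an interval that leaves out changes as large as that fitted for *Gata4*. The sign of this small value turned when libraries were scaled by their size only (-0.12), a scaling that also moved the median of all genes tested from -0.03 to -0.18.

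Levels of different genes were compared per kb of exonic length. In ControlΔEC the mean of *Gata2* was 12.8 CPM per kb and that of *Gata4* 5.44 CPM per kb. In Wt1KOΔEC *Gata2* was at 13.1 CPM per kb and *Gata4* at 16.5 CPM per kb. Per kb, the order of these paralogs was therefore opposite in the 2 genotypes. By this measure *Gata4* was below *Gata2* in each ControlΔEC library and above it in each Wt1KOΔEC library. This order rested on the exonic lengths used, 8.024 kb for *Gata2* and 5.691 kb for *Gata4*. In CPM without division by length, *Gata4* was below *Gata2* in every library of both genotypes, with Wt1KOΔEC means of 93.8 and 105 CPM. The ratio of *Gata4* to *Gata2* per kb was 0.313, 0.621 and 0.302 in the ControlΔEC libraries and 1.33, 1.25 and 1.20 in the Wt1KOΔEC libraries, a ratio taken within each library that does not depend on how libraries were scaled (two-sided exact permutation test of its logarithm, p = 0.1, the smallest that 3 libraries against 3 can give).

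Summed over the 5 GATA genes, *Gata4* made up 18.4%, 31.8% and 19.7% of the level per kb in the ControlΔEC libraries and 49.1%, 48.8% and 45.5% in the Wt1KOΔEC libraries. The share of *Gata2* was 58.7%, 51.1% and 65.4% in ControlΔEC and 37.1%, 39.1% and 37.9% in Wt1KOΔEC, although its own level was nearly the same. These shares are descriptions of a sum that holds *Gata4* itself, and no test was made of them. They too rest on the exonic lengths used. *Gata3*, *Gata5* and *Gata6* together took less than *Gata2* alone in every library, as the plot of the composition shows.

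**Figure D2:**
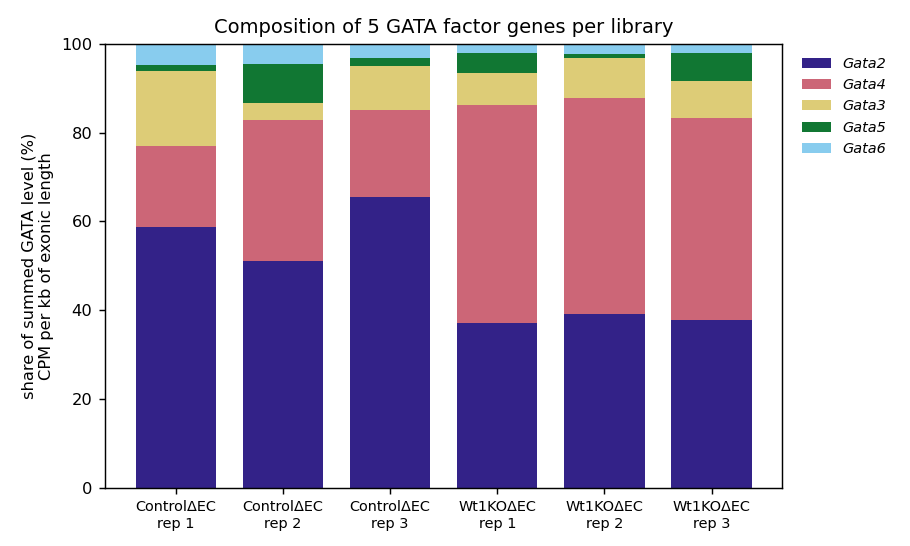
Share (%) of the summed level of 5 GATA genes, in CPM per kb of exonic length, taken by each gene in each of the 6 libraries. *Gata2* took between 51.1% and 65.4% in ControlΔEC, and *Gata4* took between 45.5% and 49.1% in Wt1KOΔEC, where *Gata2* took between 37.1% and 39.1%.

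*Gata6*, on chromosome 18, acts beside GATA4 in the heart and in vascular smooth muscle. It was at 9.05, 11.6 and 5.24 CPM in ControlΔEC and at 6.09, 7.41 and 6.69 CPM in Wt1KOΔEC, with the Wt1KOΔEC values inside the ControlΔEC range. The log2 fold change was -0.36 (95% interval -1.25 to 0.53, edgeR adjusted p = 0.793), and it was -0.61 without ControlΔEC replicate 3 and -0.09 without ControlΔEC replicate 2. The ratio of *Gata4* to *Gata6* per kb was 3.88, 7.05 and 6.45 in ControlΔEC and 25.4, 21.5 and 21.3 in Wt1KOΔEC, with no overlap between genotypes and the same smallest p of 0.1 in the exact permutation test. The antisense gene *Gata6os*, which shares 1154 exonic bases with *Gata6* on the other strand, had 3, 109 and 33 counts in ControlΔEC and 8, 44 and 44 in Wt1KOΔEC. SMART-seq2 does not mark the strand, so reads from the exonic bases that such overlapping pairs share cannot be told apart.

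*Gata3* (chr2:9861889-9894845, minus strand), known from T cells, sympathetic neurons and some ECs, was at 15.8, 4.74 and 8.26 CPM in ControlΔEC and at 11.3, 14.3 and 12.9 CPM in Wt1KOΔEC. ControlΔEC replicate 1 was the highest of the 6 libraries and replicate 2 the lowest. Its log2 fold change was 0.42 (95% interval -0.55 to 1.39, edgeR adjusted p = 0.77), and it was 0.99 without ControlΔEC replicate 1 and 0.10 without ControlΔEC replicate 2. *Gata3* and *Gata5* lie on chromosome 2 like *Wt1*, but far from it on the map, *Wt1* being at chr2:104956625-105003961.

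*Gata5* (chr2:179966880-179976509, minus strand) encodes a factor of endocardium and epicardium. It was at 0.983, 8.27 and 1.25 CPM in ControlΔEC and at 5.22, 1.15 and 6.97 CPM in Wt1KOΔEC. ControlΔEC replicate 2 was several times above the other two ControlΔEC libraries, Wt1KOΔEC replicate 2 was several times below the other two Wt1KOΔEC libraries, and the genotypes overlapped. The log2 fold change of 0.34 had a 95% interval of -1.80 to 2.48 (edgeR adjusted p = 0.938), so that a change of the size of that of *Gata4*, in either direction, was within the interval. Leaving out ControlΔEC replicate 2 gave a log2 fold change of 1.99, and leaving out ControlΔEC replicate 1, ControlΔEC replicate 3 or Wt1KOΔEC replicate 3 turned its sign, to -0.10, -0.06 and -0.14.

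*Sox9* (chr11:112673009-112678586, plus strand) was at 3.06, 3.24 and 6.0 CPM in ControlΔEC and at 9.78, 8.99 and 12.4 CPM in Wt1KOΔEC. The groups did not overlap, and ControlΔEC replicate 3 was the closest to the Wt1KOΔEC libraries. By edgeR its log2 fold change was 1.34 (SE 0.42, 95% interval 0.40 to 2.28, edgeR adjusted p = 0.245). DESeq2 gave an adjusted p of 0.0303 on the whole table and of 0.0753 on the genes that passed the count filter, so that the call rested on the genes tested with it. Leaving out single libraries gave log2 fold changes between 1.17 and 1.72 by edgeR, all of them above 0.

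*Tbx20* (chr9:24629434-24685599, minus strand) encodes a T-box factor of heart muscle, endocardium and valves. It was at 2.57, 2.05 and 6.63 CPM in ControlΔEC and at 10.9, 6.94 and 8.75 CPM in Wt1KOΔEC. The groups did not overlap, but ControlΔEC replicate 3 and Wt1KOΔEC replicate 2 were close to each other. For *Tbx20* the log2 fold change was 1.24 (SE 0.53, 95% interval 0.04 to 2.45, edgeR adjusted p = 0.366), and the adjusted p with DESeq2 was 0.183. It was 1.94 without ControlΔEC replicate 3 and 0.95 without ControlΔEC replicate 2.

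*Mef2c* (chr13:83652064-83815555, plus strand), a MADS box factor of heart muscle that also acts in ECs, was at 198, 205 and 240 CPM in ControlΔEC and at 162, 170 and 175 CPM in Wt1KOΔEC, again with no overlap but in the opposite direction to *Gata4*. The log2 fold change was -0.34 (SE 0.15, 95% interval -0.68 to -0.01, edgeR adjusted p = 0.368), which was inside the limit of 0.58 in size. With offsets for gene length and GC content the log2 fold change of *Mef2c* was -0.13 with an edgeR adjusted p of 0.763. Per kb, *Mef2c* was at 12.5 CPM in ControlΔEC, beside *Gata2*, and at 9.86 CPM in Wt1KOΔEC, below *Gata2* in each of the 3 libraries.

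*Nkx2-5* (chr17:27057638-27063983, minus strand), the homeobox factor that marks heart muscle and its progenitors, had 0, 0 and 0 counts in ControlΔEC and 0, 9 and 23 counts in Wt1KOΔEC. A count of 0 allows up to 3 counts, which averaged 0.0773 CPM over the ControlΔEC libraries, and against that floor the Wt1KOΔEC mean was at least 5.01-fold higher. Wt1KOΔEC replicate 1 was also at 0, and *Nkx2-5* did not pass the count filter, so it was not tested. These floors cover counting error only.

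*Hand2* (chr8:57774011-57777677, plus strand), the bHLH factor of the right ventricle and of epicardial and neural crest cells, was at 0.805, 2.47 and 1.56 CPM in ControlΔEC and at 1.28, 1.57 and 0.752 CPM in Wt1KOΔEC. The values overlapped, and the log2 fold change was -0.42 (95% interval -2.49 to 1.65, edgeR adjusted p = 0.917). Its antisense neighbour *Hand2os1* (chr8:57734152-57782056, minus strand), a long non-coding RNA gene singled out after its values were seen, shares 468 exonic bases with it. *Hand2os1* was at 10.4, 12.0 and 13.8 CPM in ControlΔEC and at 27.3, 33.3 and 32.1 CPM in Wt1KOΔEC.

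The *Hand2os1* values did not overlap between genotypes, and the log2 fold change was 1.36 (SE 0.23, edgeR adjusted p = 0.108). It stayed between 1.21 and 1.58 in 18 alternatives, 4 of which gave an adjusted p under 0.05. DESeq2 called it higher, with an adjusted p of 1.49e-06. Per kb, *Hand2os1* was at 0.83 CPM in ControlΔEC and 2.13 CPM in Wt1KOΔEC, and *Hand2* at 0.681 and 0.508 CPM. The pair therefore went in different directions by their fitted values, of which that of *Hand2* was within its error of 0. Reads from the exonic bases they share could not be assigned by strand, so the counts of the pair are not fully separate.

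Promoters were available from RefSeq (GRCm38.p6, 250 bases before to 50 after each gene start) for 7 of the 10 members; *Gata4*, *Gata6* and *Sox9* had no entry. They were searched on both strands for GCGTGGGAG and GCGGGGGCG, which are known binding sequences of WT1 and of the related factor EGR1, and for the GATA motif AGATAA, whose matches here did not overlap. GCGTGGGAG was in none of the 10 member promoters and in 0.472% of 32851 promoters, GCGGGGGCG was in the promoters of *Gata5* and *Hand2* and in 2.91% of all promoters, and AGATAA was in that of *Hand2* and in 11.2% of all promoters. The matches are shown with 10 bases on either side because they are the only ones among the members, in the direction of the gene with the matched letters in capitals.
Gata5 (chr2:180334719-180334747, minus strand): gggcggcacgGCGGGGGCGgggcagccca
Hand2 (chr8:57320900-57320928, plus strand): cgcgaggcgcCGCCCCCGCcgccccggga
Hand2 (chr8:57320801-57320826, plus strand): cccgttttaaTTATCTtatggttatg
In *Hand2* both matches are on the opposite strand. A match describes the letters of the window only.

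The plot of log2 fold changes sets the 9 tested members side by side. The 3 largest values, those of *Gata4*, *Sox9* and *Tbx20*, kept their direction in each of 18 alternatives, and so did *Mef2c*, *Gata3* and *Gata6*. In each of the 9 members the coefficient of variation was larger in ControlΔEC than in Wt1KOΔEC, as it was in 65.0% of all genes tested. For *Gata4* it was 54.3% in ControlΔEC and 5.76% in Wt1KOΔEC. ControlΔEC replicate 2 was the highest ControlΔEC library for 5 of the 9 members (*Gata2*, *Gata4*, *Gata5*, *Gata6* and *Hand2*).

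**Figure D3:**
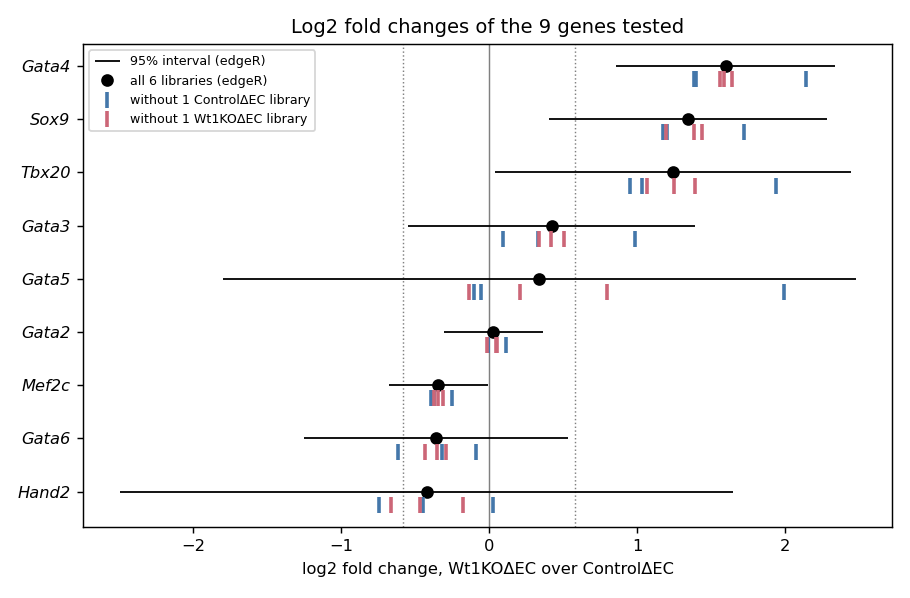
Log2 fold changes (Wt1KOΔEC over ControlΔEC) of the 9 tested members, with points and lines for the edgeR value and its 95% interval from all 6 libraries, and ticks for the values with 1 ControlΔEC (blue) or 1 Wt1KOΔEC (red) library left out; dotted lines mark 0.58 in either direction. *Gata4* (1.60), *Sox9* (1.34) and *Tbx20* (1.24) had intervals above 0 and *Mef2c* (-0.34) below 0, and the interval of *Gata5* reached from -1.80 to 2.48.

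The relatives and partners of the members were examined next, and edgeR called none of them, against 0.0736% of all genes tested. DESeq2 called 2, *Eomes* and *Irx6*, against 3.15% of all genes. The counts of relatives at an unadjusted p under 0.05, here and below, stand beside 13.1% of all genes tested. Of 12 further GATA family members and partners, all tested, none had an unadjusted p under 0.05 and the median log2 fold change was -0.11. The most abundant was *Ldb2*, a bridging cofactor of LIM and GATA complexes, at 130 CPM in ControlΔEC and 155 CPM in Wt1KOΔEC. Among 6 bHLH and 10 MEF2-related genes tested, likewise, none had an unadjusted p under 0.05, with medians of 0.27 and -0.16. The nearest relative of *Mef2c* in level, *Mef2a*, was at 202 ± 49.4 CPM (SD, n = 3) in ControlΔEC and at 170 ± 32.9 CPM in Wt1KOΔEC.

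Of the 10 other SOX genes tested, *Sox4* was above and *Sox11* below ControlΔEC at an unadjusted p under 0.05, and the median was 0.03. By that rule 5.96% of all genes tested were higher and 7.12% lower. *Sox4*, a SOXC factor, was at 23.4, 27.8 and 17.1 CPM in ControlΔEC and at 30.4, 34.0 and 36.7 CPM in Wt1KOΔEC (log2 fold change 0.56, edgeR adjusted p = 0.36). *Sox11*, its close paralog, was at 29.7, 29.9 and 56.1 CPM and at 22.6, 27.9 and 18.3 CPM (log2 fold change -0.75, edgeR adjusted p = 0.341). These paralogs had opposite signs, and neither passed the adjusted threshold by edgeR or DESeq2.

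Of the 6 other T-box genes tested, *Eomes*, a T-box factor of gastrulation and of lymphocytes, had 0 counts in the 3 ControlΔEC libraries and 90, 17 and 57 counts in the Wt1KOΔEC libraries, at least 21.7-fold higher than the floor. None of the other 5 had an unadjusted p under 0.05. The T-box median was 0.44 with *Eomes* and -0.14 without it. Among the 11 cardiac homeobox genes tested, *Irx6*, named after its values were seen, had 0 counts in ControlΔEC and 61, 18 and 23 counts in Wt1KOΔEC, at least 12.8-fold higher than the floor. None of the other 10 had an unadjusted p under 0.05, and the homeobox median was -0.03 with *Irx6* and -0.04 without it. Both genes passed the count filter through the Wt1KOΔEC libraries alone, so their tests, which DESeq2 passed and edgeR did not, are not used as support.

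Genes known to be controlled by the factors were taken from lists chosen for this comparison. Of 11 GATA4 targets tested, none passed the adjusted threshold by edgeR. *Adora1* had no counts in ControlΔEC and passed the count filter through the Wt1KOΔEC libraries alone. Leaving it aside, 4 of 10 had an unadjusted p under 0.05, compared with 13.1% of all genes tested. The median log2 fold change was 0.36 (0.38 with *Adora1*). *Ccnd2*, a G1 cyclin, was at 129, 183 and 160 CPM in ControlΔEC and at 266, 284 and 254 CPM in Wt1KOΔEC (log2 fold change 0.77, edgeR adjusted p = 0.149). *Bcl2*, an inhibitor of apoptosis, was at 37.7, 44.4 and 29.7 CPM and at 17.4, 15.4 and 20.0 CPM, the opposite direction to *Gata4* (log2 fold change -1.08, edgeR adjusted p = 0.14). Neither gene overlapped between genotypes, and DESeq2 called both.

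*Adora1*, an adenosine receptor gene, had 0 counts in the ControlΔEC libraries and 21, 28 and 60 counts in the Wt1KOΔEC libraries, at least 15.9-fold higher than the floor. Its test, which DESeq2 passed and edgeR did not, is not used as support for the reason given. The other 2 GATA4 targets below an unadjusted p of 0.05, named after their values were seen, were *Nppa*, the atrial natriuretic peptide gene, with a log2 fold change of 2.17, and the cell cycle kinase gene *Cdk4*, with 0.38. *Nppa* was at 1.45, 1.99 and 0.867 CPM in ControlΔEC and at 5.25, 8.17 and 6.09 CPM in Wt1KOΔEC. The groups did not overlap for *Nppa*, and its adjusted p was 0.209 by edgeR and 0.0019 by DESeq2, which called it higher. *Nppa*, *Nppb*, *Myh6* and *Tnni3* are also among the cardiomyocyte markers summed below, so their values bear on both lists.

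Of 8 endothelial GATA2 targets, 2 were higher and 1 was lower at an unadjusted p under 0.05, with a median log2 fold change of 0.18. Over all genes tested, 5.96% were higher and 7.12% lower by that rule. *Vcam1*, a leukocyte adhesion molecule, was at 44.4, 54.4 and 57.1 CPM in ControlΔEC and at 109, 110 and 96.5 CPM in Wt1KOΔEC (log2 fold change 1.02, edgeR adjusted p = 0.102), and DESeq2 called it higher. *Emcn*, an endothelial sialomucin, had a log2 fold change of 0.41 (edgeR adjusted p = 0.332), and *Nos3*, the endothelial nitric oxide synthase, of -0.49 (edgeR adjusted p = 0.31), and DESeq2 called neither. The GATA2 targets thus held values in both directions.

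Of 10 SOX9 targets tested, 8 had a log2 fold change above 0 and 2 below, with a median of 0.48, and 48% of all genes tested were above 0. *Hapln1*, a link protein of the valve and cartilage matrix, was the only one with an unadjusted p under 0.05. It was at 26.6, 30.9 and 32.9 CPM in ControlΔEC and at 46.3, 46.8 and 47.6 CPM in Wt1KOΔEC (log2 fold change 0.64, edgeR adjusted p = 0.22), and DESeq2 called it higher, with an adjusted p of 0.0113. *Matn1*, a matrilin of cartilage, was at 0 in all 6 libraries.

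**Figure D4:**
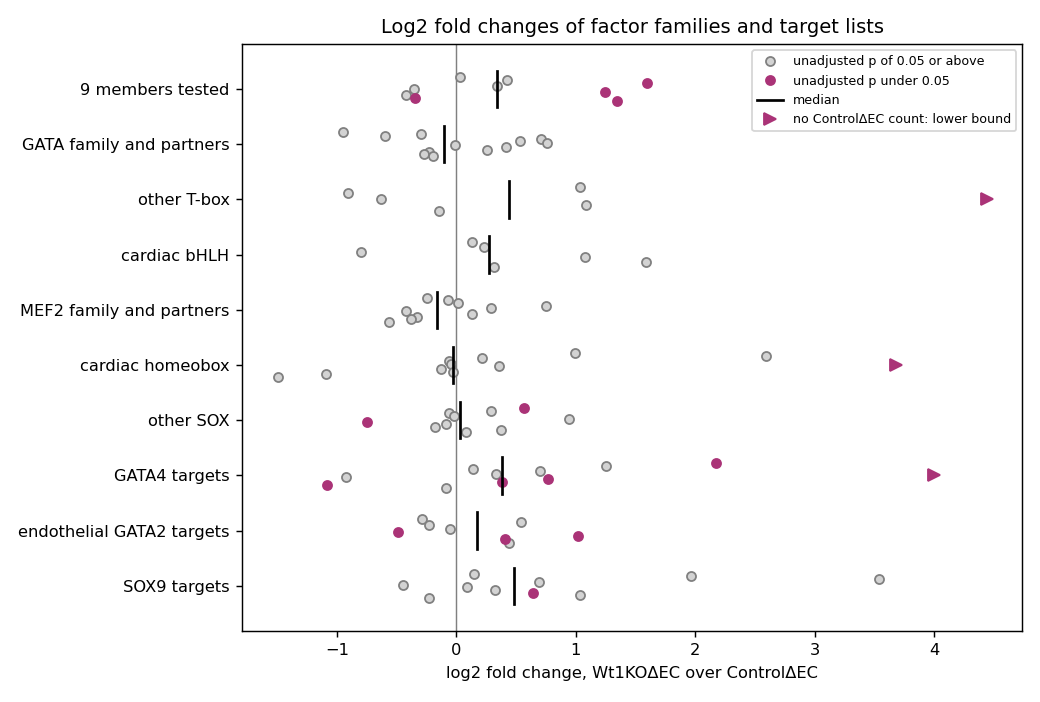
Log2 fold changes (Wt1KOΔEC over ControlΔEC) of the tested genes of each family and target list, 1 point a gene, filled where the unadjusted edgeR p was under 0.05; lines give the medians and triangles the lower bounds of *Eomes*, *Irx6* and *Adora1*, which had no counts in ControlΔEC. The medians ran from -0.16 for the MEF2-related genes to 0.48 for the SOX9 targets, and the members' median was 0.34.

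Several members are also expressed by other cells of the heart, so marker genes of those cells were summed in each library. The counts of markers below stand beside 5.96% higher and 7.12% lower at an unadjusted p under 0.05 over all genes tested. Endocardial markers summed to between 365 and 470 CPM in ControlΔEC and between 688 and 828 CPM in Wt1KOΔEC, and 3 of 7 were higher at an unadjusted p under 0.05, among them the DEG *Plvap*, a gene of the diaphragms of fenestrae and caveolae. Without *Plvap*, left out after its values were seen, the sum was 302, 325 and 412 CPM and 357, 467 and 431 CPM, and the genotypes then overlapped. The most abundant gene left in it, *Nfatc1*, was at 185 and 219 CPM, with overlapping values. All 7 endocardial markers had a log2 fold change above 0, with a median of 0.84. *Adgrg6*, named after its values were seen, was at 1.03, 2.19 and 6.04 CPM in ControlΔEC and at 13.7, 14.0 and 12.8 CPM in Wt1KOΔEC. DESeq2 called it higher. *Npr3* was also below that p, but its values overlapped and DESeq2 did not call it. Fibroblast markers summed to between 531 and 702 CPM in ControlΔEC and between 1155 and 1295 CPM in Wt1KOΔEC. *Wif1* was at 0 in ControlΔEC and passed the count filter through the Wt1KOΔEC libraries alone. Leaving it aside, 5 of 7 were higher at an unadjusted p under 0.05. *Dpt* was lower with no overlap, at 2.87 CPM in ControlΔEC and 0.946 CPM in Wt1KOΔEC on average. *Lum* was nearly the same in both, at 16.4 and 16.9 CPM. The paper also lists *Col1a1*, *Col3a1* and *Dcn*, which are in this sum, among venous EC markers. *Col3a1*, a fibrillar collagen, was the most abundant fibroblast marker, at 319 CPM in ControlΔEC and 624 CPM in Wt1KOΔEC.

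Epicardial markers summed to between 45.0 and 55.9 CPM in ControlΔEC and between 72.1 and 92.3 CPM in Wt1KOΔEC. Of 13 tested, 10 had a log2 fold change above 0 and 3 below, with a median of 1.08. At an unadjusted p under 0.05, 2 were higher. These were *Msln* (log2 fold change 4.07, edgeR adjusted p = 0.254) and *Upk3b* (2.15, edgeR adjusted p = 0.221), and DESeq2 called both. The most abundant, *Clu*, was at 30.7 and 36.5 CPM, with overlapping values. Fibroblast and epicardial sums were thus higher in every Wt1KOΔEC library than in any ControlΔEC library, like *Gata4*, *Sox9* and *Tbx20*. The endocardial sum was so only with *Plvap* in it, although the endocardial marker *Adgrg6* did not overlap between genotypes either. No gene was left out of the fibroblast and epicardial sums in the same way, so the lists were not treated alike. The lymphatic sums, given below, did not overlap between genotypes either. The part of fibroblast, epicardial and endocardial cells in the values of *Gata4*, *Sox9* and *Tbx20* was not tested. Cardiomyocyte markers summed to between 257 and 365 CPM in ControlΔEC and between 237 and 478 CPM in Wt1KOΔEC, and the sums overlapped. Of 17 tested, 1 was higher at an unadjusted p under 0.05, *Nppa*, which is also in the list of GATA4 targets. The part of cardiomyocytes in the values of *Gata4* was not tested. *Actc1*, cardiac actin, was the most abundant cardiomyocyte marker, at 93.9 CPM in ControlΔEC and 134 CPM in Wt1KOΔEC. Valve mesenchyme markers, which bear on *Sox9*, summed to between 362 and 480 CPM and between 451 and 514 CPM, and their sums overlapped between genotypes. Of 11 tested, 3 were higher and 1 lower at an unadjusted p under 0.05. The most abundant valve mesenchyme marker, *Postn*, a matricellular protein gene, was at 242 and 217 CPM.

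Lymphatic markers summed to between 311 and 347 CPM in ControlΔEC and between 409 and 578 CPM in Wt1KOΔEC, with 2 of 6 higher at an unadjusted p under 0.05, and *Flt4*, the receptor of VEGFC, at 238 and 264 CPM. Mural markers went the other way, from between 461 and 628 CPM to between 324 and 380 CPM. *Vtn* was at 0 in Wt1KOΔEC and passed the count filter through the ControlΔEC libraries alone. Leaving it aside, 3 of 8 tested were lower at an unadjusted p under 0.05. Among these was *Rgs5*, at 165, 26.8 and 164 CPM in ControlΔEC and at 25.4, 17.9 and 19.4 CPM in Wt1KOΔEC. The paper lists *Rgs5* and *Kcnj8*, which are in this sum, among arterial genes. *Acta2*, *Tagln* and *Cnn1* had overlapping values, with means of 45.3, 2.03 and 1.61 CPM in ControlΔEC. In Wt1KOΔEC their means were 44.2, 3.85 and 2.96 CPM. The most abundant mural marker, *Abcc9*, was at 263 and 197 CPM. *Mef2c*, which mural cells can also express, was lower in the same libraries, and the part of mural cells in its values was not tested. Neural crest markers, of which *Th* was at 0 in all libraries, summed to between 28.2 and 35.6 CPM and between 17.4 and 51.1 CPM, with none of the 2 genes tested below an unadjusted p of 0.05, and *Stmn2*, the most abundant, at 31.7 and 27.8 CPM.

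Leukocyte markers bear on *Gata3* and on ControlΔEC replicate 2. They summed to 498, 961 and 328 CPM in the ControlΔEC libraries and to 356, 361 and 261 CPM in the Wt1KOΔEC libraries. Of 10 tested, 5 were lower at an unadjusted p under 0.05, and the T cell gene *Cd3e* was at 0 in all 6 libraries. *Csf1r*, a macrophage receptor gene, was the most abundant leukocyte marker, at 195 CPM in ControlΔEC and 73.9 CPM in Wt1KOΔEC. Erythroid markers were also highest in ControlΔEC replicate 2, at 14369 CPM. They were at 6576 and 8737 CPM in the other ControlΔEC libraries and between 5116 and 8508 CPM in Wt1KOΔEC. Of 9 tested, 1 was higher and 2 lower at an unadjusted p under 0.05, and *Hba-a1* was the most abundant, at 3550.2 and 2445 CPM. The library in which *Gata4*, *Gata5*, *Gata6* and *Hand2* were at their highest ControlΔEC values was therefore also the one with the most leukocyte and erythroid RNA, and *Gata3* was at its lowest there. Whether these facts are connected was not tested.

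**Figure D5:**
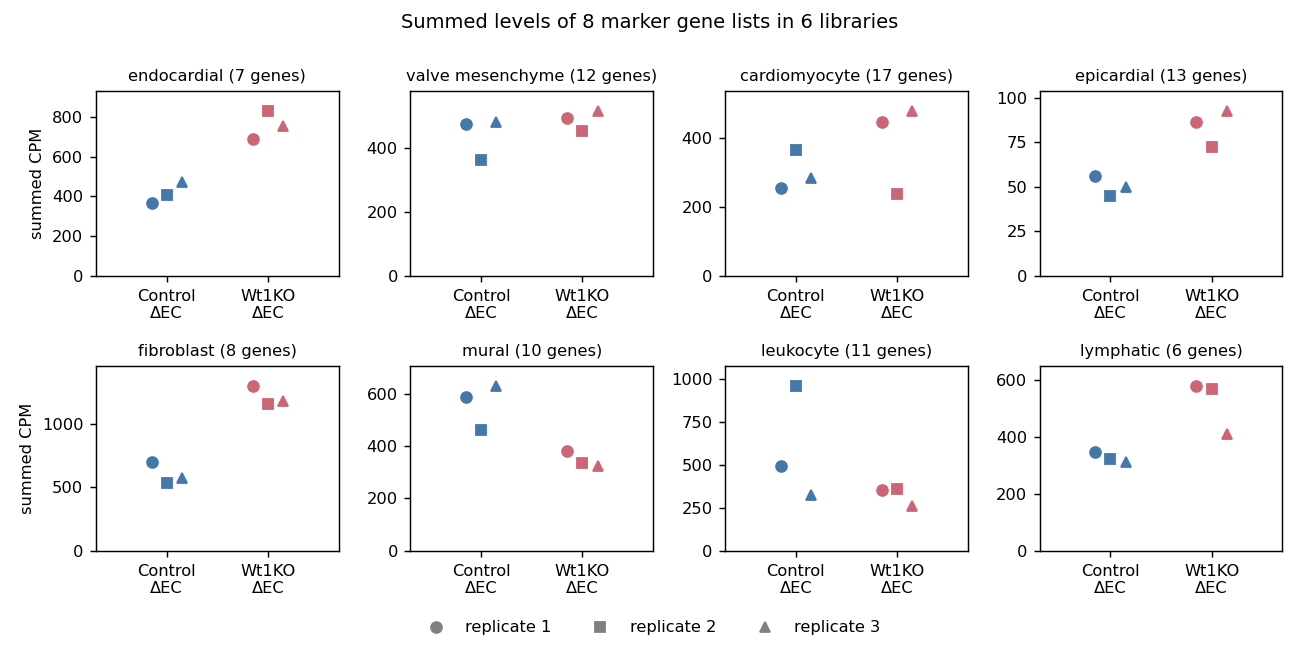
Summed TMM-normalized CPM (linear axes from 0) of 8 marker lists in the 3 ControlΔEC (blue) and 3 Wt1KOΔEC (red) libraries, 1 point a library with its shape giving the replicate. Fibroblast sums were 531 to 702 CPM in ControlΔEC and 1155 to 1295 CPM in Wt1KOΔEC, cardiomyocyte sums overlapped, and the leukocyte sum was highest in ControlΔEC replicate 2, at 961 CPM.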

How the data were processed

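RNA of sorted mGFP+ cells was made into SMART-seq2 libraries by the authors, aligned with STAR 2.7.8a and quantified with RSEM 1.3.0. The deposited table holds expected counts from RSEM, one whole number per gene and library, with no normalization applied. The methods name GRCm39 with GENCODE vM27, whereas the submitters' processing notes list GRCm38. Gene positions and exonic lengths were taken here from GENCODE vM39 on GRCm39, and all 10 members matched by gene identifier.

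Genotypes were read from the sample labels. Genes reaching 10 counts in 2 or more libraries were tested with edgeR 4.0.16 in R 4.3.3 (TMM, quasi-likelihood F test, Benjamini-Hochberg adjustment over all 16296 genes), and DESeq2, the tool of the study's methods, was run here as an alternative (1.42.0). Further alternatives were limma-voom (3.58.1), other scalings and count filters, a replicate block, length and GC offsets, an unadjusted p and each library left out. The scripts were tested on simulated data. With 3 libraries a genotype, an exact permutation test of a single value cannot go below a p of 0.1; it was used for the ratios of *Gata4* to *Gata2* and to *Gata6* only. A count of 0 was given a floor of 3 counts. Total counts of 26037324 to 44779020 set the precision of low genes.

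The members and the gene lists were chosen with earlier results of these data known. Named genes were the members, *Wt1*, in each family or target list the DEGs or else up to 3 genes of lowest p under 0.05 with a mean of 1 CPM or more, and in each marker list the most abundant gene and those at 0; other genes named were chosen after their values were seen.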

Additional observations from a re-analysis of the deposited data

How the results depend on the processing

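Under 18 alternatives, *Gata3*, *Gata4*, *Gata6*, *Tbx20*, *Mef2c*, *Sox9* and *Wt1* kept their direction, and *Wt1* was called in all 18. *Gata4* was called in 5 of the 18 and *Sox9* in 1. The log2 fold change of *Gata2* turned to -0.12 by library size only, -0.0764 with length and GC offsets and -0.0723 with these and the replicate block, and was between -0.013 and 0.11 with single libraries left out, below 0 without ControlΔEC replicate 1 (-0.0079), ControlΔEC replicate 3 (-0.0083) or Wt1KOΔEC replicate 2. *Gata5* turned to -0.10, -0.06 and -0.14 without ControlΔEC replicate 1, ControlΔEC replicate 3 and Wt1KOΔEC replicate 3, and reached 1.99 without ControlΔEC replicate 2. *Hand2* was between -0.74 and 0.026 with single libraries left out, above 0 without ControlΔEC replicate 2. The causes were not tested.

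Of all genes tested, 12 were called. The number was 296 with no filter, 113 with 10 counts in every library, 767 with DESeq2, 599 with DESeq2 after the count filter (an alternative chosen after seeing the data), 1652 by unadjusted p, and 2 to 37 with single libraries left out, the highest without ControlΔEC replicate 3 and the lowest without Wt1KOΔEC replicate 3. In the same order of settings, members called numbered 1, 1, 2, 1 and 3, and 0 to 1 with single libraries left out (1 without ControlΔEC replicate 2). Target genes called numbered 3, 1, 6, 6 and 6. Related factors called numbered 1 with no filter, 2 with DESeq2, 2 with DESeq2 after the count filter and 3 by unadjusted p.

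The labels do not say whether replicate numbers pair the samples. Same-numbered libraries correlated at 0.0566, 0.00448 and 0.0201 in their deviations from the group means, and differently numbered ones at -0.0429 to 0.0250. With 3 libraries a genotype these values cannot decide whether a number marks a litter. With the replicate block 5 genes were called in all, with the block and the length and GC offsets 5, and no member in either.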
